A study of Mus musculus with 6 samples.

Results

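Acod1, the enzyme that makes itaconate, and 8 enzymes of the tricarboxylic acid (TCA) cycle and its cytosolic branch were followed in RNA-seq of mouse peritoneal macrophages. The 9 genes were picked by name out of 54532 in the deposited table, and all 9 passed the filter of a mean FPKM (fragments per kilobase of gene, on each library's deposited scale) of at least 1. They are Acod1, Cs, Idh1, Idh2, Idh3a, Ogdh, Sdha, Fh1 and Mdh2. The study asked how muscone, a macrocyclic ketone from musk, acts in the activation stage of the NLRP3 inflammasome. There were 3 groups of 2 libraries each, all from wild-type C57BL/6J macrophages elicited by thioglycolate. Control cells were untreated. Model cells received 500 ng/mL lipopolysaccharide (LPS) for 5.5 h and then 2 mM ATP for 0.5 h. In the MUS group 50 μM muscone came on top of this treatment and was added 5 h after LPS and 0.5 h before ATP. MUS therefore differed from Model by muscone and from Control by all 3 agents. Elicited cells are a population recruited by an irritant and are not resident macrophages. Whether replicates came from separate mice or cultures is not given in the sources used here, so the p-values measure the spread between these libraries, which may be technical.

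The TCA cycle oxidizes acetyl units in mitochondria. Citrate synthase (Cs) forms citrate, which passes through cis-aconitate to isocitrate, isocitrate dehydrogenases form α-ketoglutarate, and the α-ketoglutarate dehydrogenase complex, succinate dehydrogenase, fumarase and malate dehydrogenase close the circle. Macrophages given LPS are known to induce Acod1, also called Irg1, whose product withdraws cis-aconitate from the cycle as itaconate. Itaconate is known to inhibit succinate dehydrogenase, and classically activated macrophages are described as having breaks at isocitrate dehydrogenase and at succinate dehydrogenase.

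The promoters of the 2 members with the largest differences are shown because Acod1 was higher and Idh1 lower in the stimulated libraries. RefSeq sequences on GRCm38.p6 were matched by symbol for 8 of the 9 members, all but Idh3a. Each window runs 5′ to 3′ on the gene's strand from 250 to 36 bases before the RefSeq start, and capitals mark matches to TATAA on either strand. The windows are chr14:103046762-103046976 on the plus strand for Acod1 and chr1:65186515-65186729 on the minus strand for Idh1.
Acod1: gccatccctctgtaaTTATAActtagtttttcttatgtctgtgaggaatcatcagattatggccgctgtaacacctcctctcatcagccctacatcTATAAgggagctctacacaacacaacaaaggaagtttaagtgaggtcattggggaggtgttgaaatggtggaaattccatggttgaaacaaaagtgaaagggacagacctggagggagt
Idh1: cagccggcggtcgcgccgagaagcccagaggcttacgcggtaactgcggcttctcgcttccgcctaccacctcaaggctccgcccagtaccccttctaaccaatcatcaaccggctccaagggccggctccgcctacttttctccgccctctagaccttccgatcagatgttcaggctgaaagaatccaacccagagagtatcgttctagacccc
The Acod1 window had a GC content of 43.3% and the Idh1 window of 60%. Over the 250 bases before the RefSeq start, the Acod1 promoter held TATAA on the plus strand at -234 to -230, at -154 to -150 and at -28 to -24. The last of these lay outside the printed bases and inside the gene as annotated. The match at -234 to -230 overlapped a match on the minus strand at -235 to -231. The Idh1 promoter held no match, and 22.8% of the 32851 RefSeq promoters of that length held at least 1. The other motifs searched on both strands were the NF-κB κB consensus (in 23.2% of promoters), the interferon-stimulated response element read as GAAA, any 2 bases and GAAA (2.98%), AP-1 read as TGANTCA (6.75%), C/EBP read as TTGC, any 2 bases and AA (9.56%) and the E-box CACGTG (6.02%). The κB consensus was read as GGRNNNYYCC, with R a purine, Y a pyrimidine and N any base. Neither promoter held an exact match to any of these patterns in the 250 bases, and looser or differently spaced forms were not searched. The table gave 2 starts for Idh1, of which the start nearest to the annotated gene was used.

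Between 15526321 and 17135442 fragments per library fell on genes. Members were covered by 128 fragments (Idh2 in Model replicate 1) to 65959 fragments (Acod1 in MUS replicate 1). The 2 Control libraries stood apart from each other. Of the 930 genes that rose in Model over Control, 799 (85.9%) were higher in Control replicate 2 than in Control replicate 1, against 53.2% of all genes tested, and of the 545 that fell, 76 (13.9%) were higher there. Control replicate 2 was therefore displaced toward the stimulated libraries, and the fold changes of the members in comparisons with Control are given with and without it. In Model replicate 1, 24906 genes had at least 1 fragment, against 17406 to 19200 in the other 5 libraries. The deposited scale also differed: the FPKM worth of 1 fragment on a gene of 1 kb was 0.0437 in both Control libraries and 0.0616 to 0.0709 in the other 4. With libraries rescaled to equal fragment totals, the median log2 fold change of all genes in Model vs. Control moved from 0.04 to -0.42, and the genes called changed from 930 higher and 545 lower to 647 higher and 1633 lower. The 8 macrophage markers were all expressed, with summed levels of 9574 to 14283 FPKM, most of it from Lyz2 (7275 to 12007). The others did not move together in deposited FPKM. Csf1r (208 and 272 in Control, 83.4 to 105 in the stimulated libraries) and Cd68 were lower in every stimulated library. Cd14 (125 and 406 in Control, 1140 to 1748 in the stimulated libraries), Fcgr1 and Itgam were higher in every stimulated library, and Adgre1, Lyz2 and Mertk overlapped. Of 9 neutrophil markers, 2 (S100a8 and Mmp8) reached a mean of 1, S100a9, Ly6g and Retnlg were listed at 0 in all 6 libraries, and the summed level was 20.6 and 34.4 FPKM in Control, at 114 and 61.3 in Model and at 69.3 and 55.3 in MUS. S100a8 made up most of that sum, at 13.5 and 30.6 FPKM in Control and 50.3 to 110 in the stimulated libraries, whereas Mmp8 was at 6.62 and 3.48 in Control and 2.63 to 4.69 in the others. The part of these cells in the results was not tested.

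Acod1 (ENSMUSG00000022126, chr14:103046977-103056573, plus strand) was the most abundant member in every library but Control replicate 1. It stood at 14.1 FPKM in Control replicate 1 and 518 in Control replicate 2. Both Model libraries were far higher, at 1522 and 1387 FPKM, and the MUS libraries stood at 1664 and 1393. All 4 stimulated libraries were above both Control libraries, and Model and MUS overlapped. Acod1 ranked 2156th among all genes in Control replicate 1, 43rd in Control replicate 2 and 18th to 31st in the 4 stimulated libraries. Its transcripts took 0.00536% of the fragments in Control replicate 1, 0.181% in Control replicate 2 and 0.360% to 0.407% in the others. The Control libraries thus differed from each other by 36.8-fold, whereas the mean of Model was 2.81-fold above Control replicate 2.

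Idh1 and Idh2 showed the opposite order, and Idh3a did not separate the groups in deposited FPKM. Idh1 (ENSMUSG00000025950, chr1:65158616-65186500, minus strand), the cytosolic and peroxisomal enzyme that yields NADPH, stood at 87.7 and 36.0 FPKM in Control, 9.31 and 6.82 for Model and 7.76 and 7.84 for MUS. Every stimulated library was below both Control libraries. Idh1 was the most abundant member in Control replicate 1 and ranked 318th of all genes there, against 920th in Control replicate 2 and 3516th to 4257th in the stimulated libraries. Idh2 (ENSMUSG00000030541, chr7:80094846-80115392, minus strand), its mitochondrial counterpart, stood at 10.6 and 5.67 FPKM in Control, against 3.50 and 4.11 in Model and 4.09 and 3.71 with MUS. The stimulated libraries were again all below Control, and Control replicate 2 again lay between Control replicate 1 and the rest. Idh3a (ENSMUSG00000032279, chr9:54586334-54604661, plus strand) encodes the catalytic subunit of the NAD-dependent enzyme, the form that runs in the cycle itself. It stood at 5.56 and 7.07 FPKM in Control, at 7.24 and 5.59 in Model and at 6.51 and 5.92 in MUS, so that all 3 groups overlapped on that scale. As a share of fragments, Idh3a took 0.00410% and 0.00479% in Control and 0.00283% to 0.00334% in the stimulated libraries, which all lay below Control. The median of all genes was also lower than in Control with equal fragment totals.

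In deposited FPKM the other members differed by less than 2-fold between any of the 6 libraries. The orders of libraries given next are also on that scale. Cs (ENSMUSG00000005683, chr10:128337734-128362479, plus strand) stood at 15.2 and 18.3 FPKM in Control, 18.2 and 23.7 for Model and 21.04 and 22.9 for MUS. Ogdh (ENSMUSG00000020456, chr11:6291633-6356642, plus strand), the first subunit of the α-ketoglutarate dehydrogenase complex, stood at 25.2 and 23.5 FPKM in Control, against 14.8 and 22.5 in Model and 22.2 and 25.005 with MUS. In FPKM its low value was that of Model replicate 1 alone. Sdha (ENSMUSG00000021577, chr13:74322254-74350280, minus strand), the flavoprotein subunit of succinate dehydrogenase, stood at 24.7 and 21.1 FPKM in Control, at 30.4 and 23.4 in Model and at 37.4 and 30.3 in MUS. Both MUS libraries were above both Control libraries, and Model overlapped each of them. Fh1 (ENSMUSG00000026526, chr1:175600374-175625635, minus strand), fumarase, stood at 10.1 and 9.03 FPKM in Control, 8.33 and 7.34 for Model and 9.36 and 9.13 for MUS. Mdh2 (ENSMUSG00000019179, chr5:135778480-135790398, plus strand), mitochondrial malate dehydrogenase, stood at 26.5 and 26.4 FPKM in Control, 26.7 and 20.4 in Model and 22.3 in each MUS library. As a share of fragments, every stimulated library was below both Control libraries for Ogdh, Fh1 and Mdh2, while Cs and Sdha overlapped. With equal fragment totals the median log2 fold change of all genes was itself -0.42 in Model vs. Control and -0.41 in MUS vs. Control. The share of all genes that lay below Control in this way was not counted. Ogdh took 0.0199% and 0.0172% in Control and 0.00732% to 0.0134% in the stimulated libraries. Fh1 took 0.00497% and 0.00409%, against 0.00249% to 0.00305%, and Mdh2 0.0137% and 0.0126%, against 0.00725% to 0.00865%. Fh1 overlaps Kmo on the opposite strand, which stood at 0.0185 to 0.195 FPKM, and whether counting used strand is not given in the sources used here. Cs shared 2.01% of its 50-base stretches with the near copy Csl, and the other 8 members shared none with another gene.

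**Figure D1:**
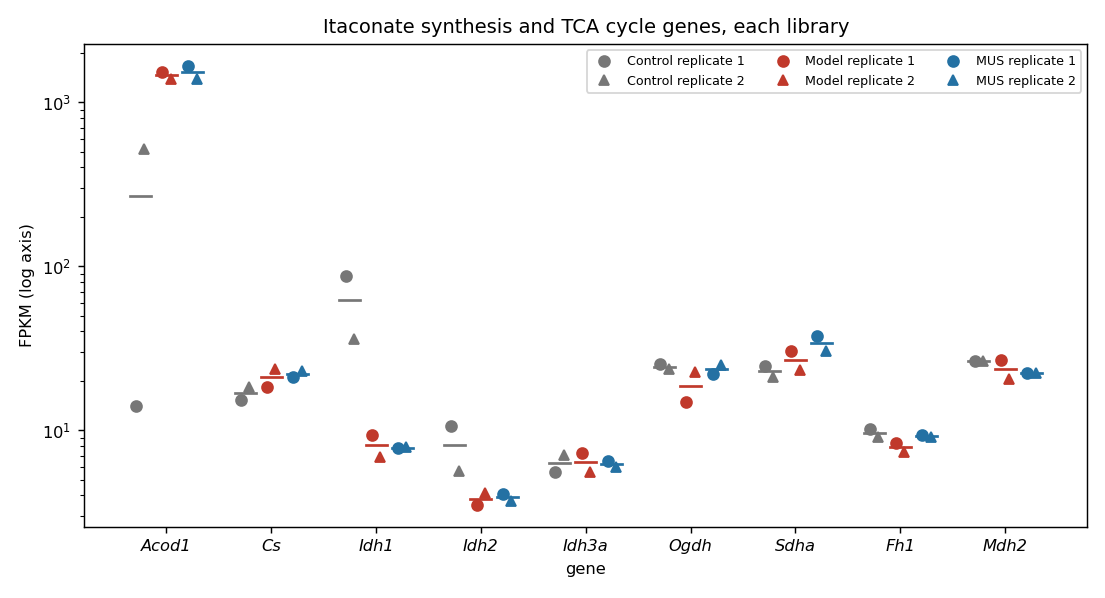
FPKM of the 9 genes in each library on a log axis, with circles for replicate 1, triangles for replicate 2 and a short line at each group's mean (n = 2). Acod1 and Idh1 separate the Control libraries from the rest in opposite directions, with Control replicate 2 (518 and 36.0 FPKM) between Control replicate 1 (14.1 and 87.7) and the stimulated libraries. On the deposited FPKM scale Cs, Idh3a, Ogdh, Sdha, Fh1 and Mdh2 each vary by less than 2-fold.

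In FPKM, which is per length, the order of the members by group mean in Control was Acod1 (266 ± 356, SD, n = 2), Idh1 (61.8 ± 36.5), Mdh2 (26.4 ± 0.0290), Ogdh (24.4 ± 1.14), Sdha (22.9 ± 2.52), Cs (16.8 ± 2.14), Fh1 (9.56 ± 0.752), Idh2 (8.14 ± 3.48) and Idh3a (6.32 ± 1.07). The Control libraries did not give Acod1 and Idh1 the same order, the libraries of Ogdh and Sdha overlapped, and Idh2 overlapped both Fh1 above it and Idh3a below it. In Model, Acod1 (1455 ± 95.2) was followed by Sdha (26.9 ± 4.92), Mdh2 (23.6 ± 4.48), Cs (20.99 ± 3.88) and Ogdh (18.6 ± 5.48), whose spreads overlapped, and then by Idh1 (8.07 ± 1.76), Fh1 (7.84 ± 0.700), Idh3a (6.41 ± 1.17) and Idh2 (3.81 ± 0.432). In MUS the order was Acod1 (1528 ± 192), Sdha (33.8 ± 5.02), Ogdh (23.6 ± 2.01), Mdh2 (22.3 ± 0.00154), Cs (22.0 ± 1.31), Fh1 (9.25 ± 0.165), Idh1 (7.80 ± 0.0584), Idh3a (6.22 ± 0.414) and Idh2 (3.90 ± 0.268). There the libraries of Ogdh, Mdh2 and Cs overlapped. Idh2 was the lowest member in both stimulated groups, and Idh1, the most abundant of the 8 members other than Acod1 in each Control library, was among the 4 least abundant members in each stimulated library.

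The comparison of Model with Control asks what LPS and ATP changed. Idh1 fell by 2.67 on the log2(FPKM + 1) scale (SE 0.42, 95% interval -3.66 to -1.69, adjusted p = 0.00840 in limma), which is 6.38-fold lower. It was the only member called a differentially expressed gene (DEG, adjusted p of at most 0.05 and over 2-fold), 1 of 9 against 15.1% of the 9794 genes tested in either direction and 5.56% that fell. At any fold the same member was the only call, against 17.3% of all genes. Acod1 was 4.04 higher on the log2 scale (SE 1.40, 95% interval 0.73 to 7.35) and missed the threshold at an adjusted p of 0.0926 in limma. Idh2 was -0.87 (SE 0.29, 95% interval -1.56 to -0.19, adjusted p = 0.0825). The remaining 6 members had log2 differences from -0.40 (Ogdh, 95% interval -1.07 to 0.27) to 0.30 (Cs), with adjusted p from 0.359 to 0.964. Among these Idh3a was at 0.02, with a 95% interval of -0.53 to 0.56. In bulk samples fewer cells of a type and less RNA per cell cannot be told apart.

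Counted by library in deposited FPKM, Acod1 was the 1 member whose Model libraries both lay above Control, against 32.6% of all genes, and 4 members (Idh1, Idh2, Ogdh and Fh1) lay wholly below, against 28.5%. The members' median log2 difference was -0.17 and that of all genes 0.04, with 4 of 9 members higher in Model.

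The calls of Acod1 and Idh2 depended on which Control library was used. Without Control replicate 2, Acod1 was 6.59 higher on the log2 scale (SE 0.35, adjusted p = 2.83e-04 in limma), Idh1 was -3.30 (adjusted p = 0.00121) and Idh2 was -1.27 (adjusted p = 0.0207), and all 3 were DEGs. The other 6 members then ran from -0.44 (Ogdh) to 0.43 (Cs), with adjusted p from 0.359 to 0.839. Without Control replicate 1, Acod1 was 1.49 higher (adjusted p = 0.0727), Idh1 was -2.04 (adjusted p = 0.0151) and Idh2 was -0.48 (adjusted p = 0.366). Idh1 was thus a DEG against either Control library, and the lone library was assumed to vary like the other groups. The labels give each replicate number a batch of its own. Within batch 1 Acod1 was 108-fold higher in Model and within batch 2 it was 2.68-fold higher. For Idh1 the within-batch difference was 9.42-fold lower and 5.28-fold lower, and for Idh2 it was 3.02-fold and 1.38-fold lower.

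Scaling moved all genes together, and the members with them. With equal fragment totals Idh2 became a DEG (-1.36, adjusted p = 0.0263 in limma) and Idh1 was -3.21, while Cs, Idh3a and Sdha turned from slightly higher to slightly lower. At any fold Fh1 then passed the adjusted p too (-0.76, adjusted p = 0.0416). It also passed with scaling that omits mitochondrial and the 20 highest genes (adjusted p = 0.0323) and under voom (0.0429), and Mdh2 passed in the former (-0.78, adjusted p = 0.0407). In MUS vs. Control Mdh2 passed in all of these settings (adjusted p = 0.0466, 0.0407 and 0.0446). Taken against the median of all genes, Idh1 was -2.71 as deposited and -2.79 after rescaling, Idh2 was -0.92 and -0.94, and Acod1 was 3.998 and 3.92. Without the filter on low values Idh1 kept its difference but lost the call (adjusted p = 0.0775), with 30192 genes in the fit.

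**Figure D2:**
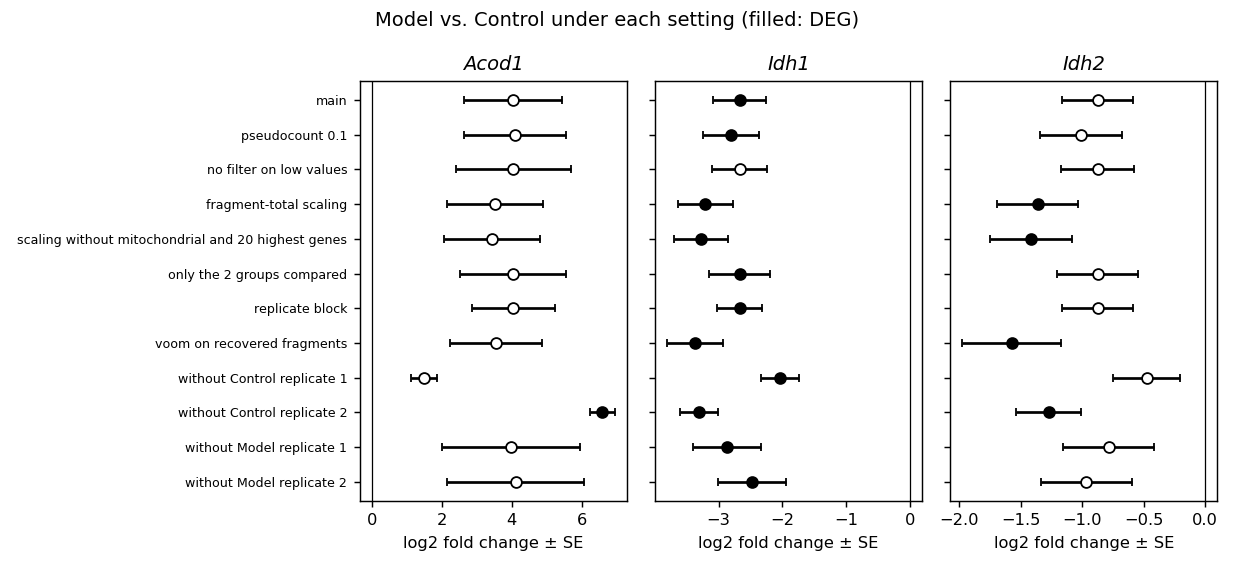
Log2 fold change (± SE, from limma) of Acod1, Idh1 and Idh2 in Model vs. Control as analysed and under each alternative that keeps both MUS libraries, with filled points where the gene was a DEG. Idh1 stays between -2.04 and -3.37 and is open only without the filter on low values, whereas Acod1 runs from 1.49 without Control replicate 1 to 6.59 without Control replicate 2.

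Ratios within a library do not depend on its scale. The ratio of Idh1 to Idh2 was 8.27 and 6.35 in Control, against 2.66 and 1.66 in Model and 1.90 and 2.11 with MUS, and the Control libraries did not overlap the others. The ratio of Acod1 to Cs was 0.923 and 28.3 in Control, at 83.4 and 58.5 in Model and at 79.1 and 60.8 in MUS. Idh1 to Cs was 5.75 and 1.97 in Control and 0.288 to 0.510 in the stimulated libraries. In contrast, Idh3a to Cs ranged from 0.235 to 0.397 and Sdha to Cs from 0.987 to 1.78 over all 6 libraries, with overlap between Model and Control.

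**Figure D3:**
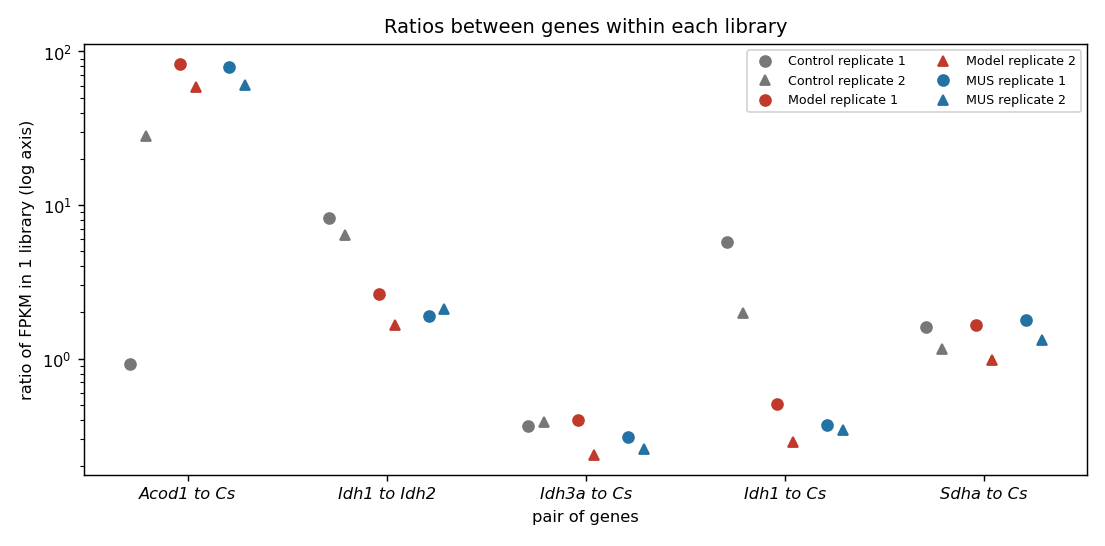
Ratio of the FPKM of pairs of genes within each library, on a log axis, with colours for groups and circles and triangles for replicates 1 and 2. Idh1 to Idh2 is at least 6.35 in both Control libraries and at most 2.66 in the stimulated ones, and Acod1 to Cs is 0.923 in Control replicate 1 and 28.3 in Control replicate 2.

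MUS vs. Model asks what muscone added to LPS and ATP. No member passed the test: 0 of 9 were DEGs, as were 0% of all genes tested, and 0 of 9 had an unadjusted p under 0.05 in limma, against 8.42% of all genes. That 0% belongs to the limma fit of FPKM, which pools the spread of all groups. With DESeq2 at the same thresholds the paper does report DEGs between MUS and Model. Acod1 differed by 0.07 on the log2 scale, Idh1 by -0.03 and Idh2 by 0.03. The largest differences were those of Ogdh (0.35), Sdha (0.32) and Fh1 (0.22), and adjusted p ran from 0.798 to 0.994. A fit of the MUS and Model libraries alone, which leaves out the spread of the Control pair, gave narrower 95% intervals for Acod1 and Idh1. In the fit of all libraries these were -3.25 to 3.38 for Acod1 and -1.01 to 0.95 for Idh1. In the fit of those groups alone they were -0.71 to 0.84 for Acod1, -0.62 to 0.57 for Idh1, -0.32 to 1.02 for Ogdh, -0.29 to 0.94 for Sdha and -0.32 to 0.75 for Fh1. A 2-fold difference (1 on the log2 scale) thus lay inside the interval for Ogdh in both fits, and inside it for Acod1 and Idh1 in the fit of all libraries but not in that of the MUS and Model libraries alone.

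Fh1 was the only member whose MUS libraries both lay above Model, 1 of 9 against 21.2% of all genes, and 0 of 9 lay wholly below, against 21%. Its difference was 0.15 in batch 1 and 0.28 in batch 2. Sdha was higher in MUS by 0.29 in batch 1 and by 0.36 in batch 2, although its libraries overlapped. The difference of Ogdh was 0.56 in batch 1, where Model replicate 1 was low, and 0.15 in batch 2. The members' median was 0.07 and that of all genes 0.01.

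**Figure D4:**
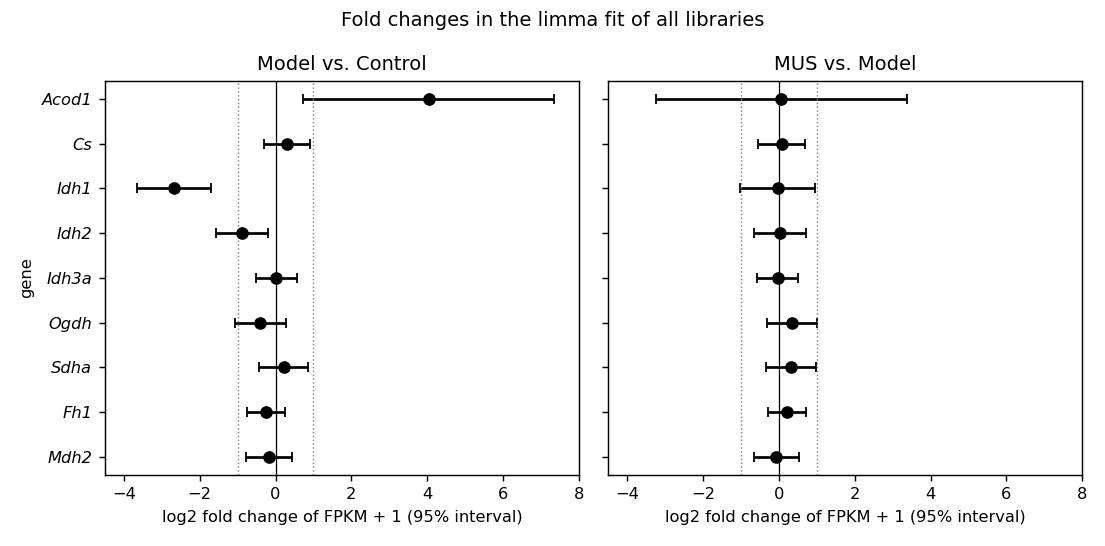
Log2 fold changes of FPKM + 1 with 95% intervals from limma for the 9 genes, with Model vs. Control on the left, MUS vs. Model on the right and dotted lines at a 2-fold difference. In Model vs. Control, Idh1 (-2.67), Idh2 (-0.87) and Acod1 (4.04) have intervals that leave out 0, and in MUS vs. Model every interval includes it.

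MUS vs. Control shares its Control libraries with the first comparison, so the values are given side by side. Idh1 fell by 2.70 on the log2 scale (adjusted p = 0.00643 in limma) and was the only DEG among the members, 1 of 9 against 20.2% of all genes in either direction and 8.91% that fell. Without MUS replicate 1 its difference was again -2.70, but the adjusted p was 0.0708. Acod1 was 4.11 higher (adjusted p = 0.0729), and with the batch number as a block in the fit it became a DEG (adjusted p = 0.0417). Idh2 was -0.85 (adjusted p = 0.0743) and Sdha was 0.54 (adjusted p = 0.191). Without Control replicate 2 Acod1 was 6.66 higher, Idh1 was -3.33 and Idh2 was -1.24, and all 3 were DEGs, while the other 6 members ran from -0.23 (Mdh2) to 0.50 (Cs), with adjusted p from 0.264 to 0.865 in limma. In deposited FPKM the libraries of 3 members (Acod1, Cs and Sdha) lay wholly above Control, against 39.6% of all genes, and those of 3 (Idh1, Idh2 and Mdh2) wholly below, against 33.8%.

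The wider pathway list held 48 further genes of pyruvate entry, the cycle, its carriers and its side branches, of which 39 passed the filter. In Model vs. Control 0 of 39 were DEGs, against 15.1% of all genes. At any fold 2 rose, against 10.3% of all genes that rose under that rule. These were Slc25a12, the mitochondrial aspartate-glutamate carrier, and Mpc1, a subunit of the mitochondrial pyruvate carrier. Slc25a12 stood at 3.82 and 4.29 FPKM in Control, 8.11 and 9.87 for Model and 9.71 and 8.91 for MUS (log2 difference 0.98 for Model vs. Control, adjusted p = 0.0247 in limma). Mpc1 stood at 4.29 and 4.87 FPKM in Control, against 8.81 and 8.96 in Model and 8.61 and 9.31 with MUS (0.83, adjusted p = 0.0348). Both were higher in all 4 stimulated libraries than in either Control library. No gene of the list passed the adjusted p upward in Model vs. Control without the filter, under either rescaling, under voom, in the fit of those groups alone or when any library but Control replicate 2 was left out. The lowest p among genes lower in Model were those of Pdpr (-1.17, adjusted p = 0.0965), a regulator of pyruvate dehydrogenase phosphatase, Aco1 (-0.66, adjusted p = 0.107), the cytosolic aconitase, and Me2 (-0.52, adjusted p = 0.135), mitochondrial malic enzyme. Pdpr was 0.155 FPKM in Model replicate 1 and 1.86 in Model replicate 2. The list's median was -0.13. Without Control replicate 2 the list had 3 DEGs in each comparison with Control, among them Slc25a12, which was higher, and Pdp1, a pyruvate dehydrogenase phosphatase, which was lower. Rescaling to equal fragment totals gave 5 calls among the 39, all lower (Pdp1, Pdpr, Aco1, Me2 and Slc25a11). Over all genes it called 2280 of 10066, of which 1633 were lower, and their median moved by the shift given above.

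In MUS vs. Model 0 of 39 were DEGs, as were 0% of all genes tested. Of the list 1 gene had an unadjusted p under 0.05 in limma, against 8.42% of all genes. This was Slc25a10, the mitochondrial dicarboxylate carrier, at 5.34 and 10.1 FPKM in Control, at 5.74 and 3.57 in Model and at 1.42 and 2.60 in MUS (log2 difference -0.91, adjusted p = 0.551). Both MUS libraries were below all 4 others. Sdhc (-0.39, adjusted p = 0.757) and Mpc2 (-0.37, adjusted p = 0.788) were next among the lower genes. Among the higher ones were Acly, ATP-citrate lyase (0.43, adjusted p = 0.717) and Me1, cytosolic malic enzyme (0.32, adjusted p = 0.820). In MUS vs. Control Slc25a12 rose (1.03, adjusted p = 0.0163 in limma) and Slc25a10 fell by 1.51 (adjusted p = 0.0251). They were the 2 DEGs among the 39, against 20.2% of all genes. Neither was called without the filter on low values, without MUS replicate 1 or without MUS replicate 2. Slc25a10 also lost its call without Control replicate 2, and Slc25a12 without Control replicate 1, under both rescalings and under voom. Mpc1 passed the adjusted p alone (0.84, adjusted p = 0.0272). Sucla2 (0.74, adjusted p = 0.0836), Idh3g (-0.64, adjusted p = 0.0948) and Pdk1 (-0.71, adjusted p = 0.0959) did not.

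Partner subunits of the members' complexes, singled out for that role and outside the rule for named genes, were also read library by library. Sdhd stood at 39.0 and 47.6 FPKM in Control, against 101 and 50.8 in Model and 51.5 and 52.0 with MUS, and Sdhb at 42.7 and 40.1, 49.6 and 29.6, and 28.3 and 29.7. For Sdhb, Sdhc and Sdhd the highest library was Model replicate 1. For Idh3a's partners, Idh3b stood at 10.2 and 12.01 FPKM in Control, at 18.4 and 12.7 in Model and at 12.3 and 12.7 in MUS, while Idh3g was at 15.1 and 11.0, 9.52 and 8.46, and 8.40 and 7.45. Dlst, a partner of Ogdh, was at 7.69 and 7.52 FPKM in Control and between 9.40 and 10.2 in the stimulated libraries. Dld, a subunit that this complex shares with pyruvate dehydrogenase, was at 20.8 and 29.7 FPKM in Control and between 39.3 and 64.2 in the stimulated libraries (log2 difference 0.99 for Model vs. Control, adjusted p = 0.0944 in limma). Clybl, the mitochondrial lyase of the itaconate breakdown route, stood at 2.94 and 1.24 FPKM in Control, 1.32 and 0.849 for Model and 1.37 and 0.682 for MUS, with overlap between groups. Adjusted p for these 8 in Model vs. Control and in MUS vs. Model lay above the threshold in the main fit. Idh3g was called lower in Model vs. Control with scaling that omits mitochondrial and the 20 highest genes and under voom. In MUS vs. Control both rescalings and voom called Idh3g and Sdhb lower.

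The genes whose profiles were most like that of Acod1 were found by the root-mean-square difference of centred log2(FPKM + 1) values over the 6 libraries. The 5 closest were Cd38, an NAD-consuming ectoenzyme (0.33), the formyl peptide receptor Fpr2 (0.44), Marcksl1 (0.48), the cytokine gene Tnf (0.52) and Tarm1 (0.55). Cd38 stood at 4.87 and 103 FPKM in Control, against 405 and 335 in Model and 346 and 296 with MUS. Tnf stood at 8.62 and 183 FPKM in Control, at 1510 and 1034 in Model and at 654 and 701 in MUS. Both were chosen for this likeness, so the shared order of the libraries is a description. The 5 closest to Idh1 were Vsir, which encodes an inhibitory receptor (0.11), the sialyltransferase gene St6gal1 (0.13), C77080 (0.15), Tcp11l2 (0.15) and Tfeb, a transcription factor of lysosomal genes (0.19). Vsir stood at 71.4 and 30.6 FPKM in Control, 9.10 and 6.32 for Model and 5.89 and 6.89 for MUS. Tfeb stood at 9.86 and 4.75 FPKM in Control, against 0.825 and 0.433 in Model and 0.408 and 0.478 with MUS. Their likeness to Idh1 was the basis of the choice.

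**Figure D5:**
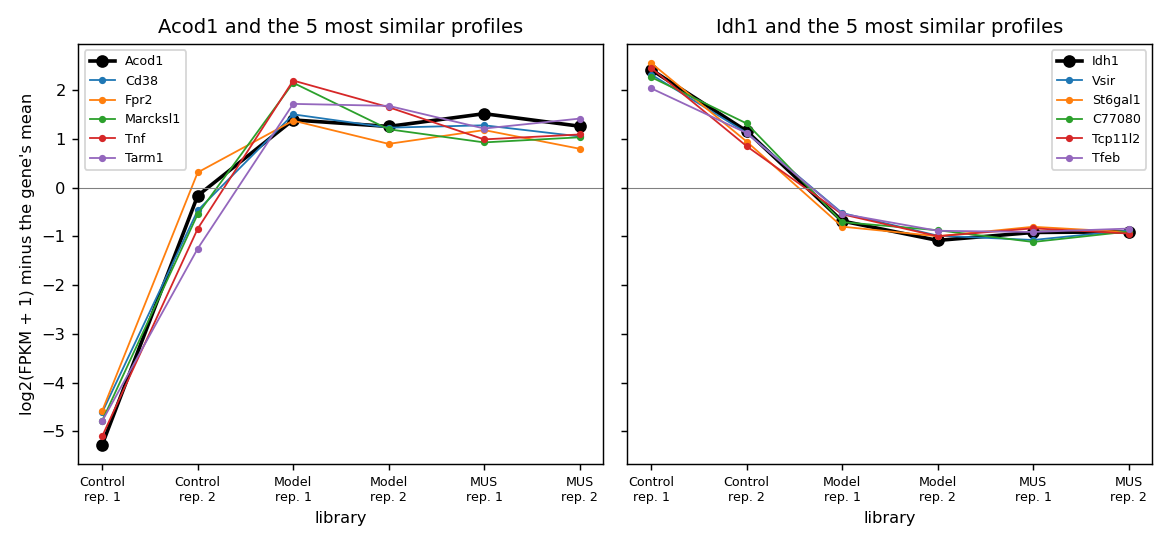
Log2(FPKM + 1) minus each gene's mean over the 6 libraries, for Acod1 and Idh1 (black) and the 5 genes with the most similar profile. In both panels Control replicate 2 lies between Control replicate 1 and the 4 stimulated libraries, as for Cd38 (4.87 and 103 FPKM in Control) and Vsir (71.4 and 30.6).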

How the data were processed

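RNA-seq was performed on 6 libraries (Control, Model and MUS, 2 each), grouped by the treatment labels. The authors deposited a table of FPKM with 1 column per library, and 0 columns had no sample. The methods name RSEM, whereas the submitters' processing notes name HISAT2, featureCounts 1.5.0-p3 and GRCm39. Gene positions equalled those of GENCODE M21 on GRCm38 for 98.33% of shared genes and for all 9 members, and coordinates follow that build. Whole fragments were recovered from FPKM and gene length (100% within 0.1 of a step).

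The 9794 genes averaging at least 1 FPKM were fitted as log2(FPKM + 1) in limma 3.58.1 (R 4.3.3; all libraries, 3 groups, trended empirical Bayes), with Benjamini-Hochberg adjustment over all of them. Such fold changes understate the change of low genes. DEGs had an adjusted p of at most 0.05 and over 2-fold. An exact permutation of 2 against 2 libraries cannot go below p = 0.333 and was not used. The members and lists were chosen with earlier results of these data known. All members were named; of the wider list, the genes called and, up to 3 in a direction, the next by p; and the 5 genes most like Acod1 and Idh1. Genes of the wider list that this rule names but the text leaves out are not reported here.

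Alternatives were a pseudocount of 0.1, no filter, 2 rescalings of the libraries, a fit of only the groups compared, the batch as a block, voom on recovered fragments, and leaving out each library. The labels tie replicate numbers to batches. Same-numbered libraries deviated together weakly, with correlations of 0.12 (Control and Model), 0.14 (Model and MUS) and -0.09 (Control and MUS) of the replicate differences over genes.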

Additional observations from a re-analysis of the deposited data

How the results depend on the processing

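Of 468 values of the members and lists under the alternatives, 393 kept their direction and their side of the threshold (or stayed within 1.5 times or the replicate spread), and 30 changed direction. The cause was not tested. A fit of only the groups compared, the replicate block and leaving out a library of the group not compared return the main fold change of a gene. Their directions could not change, so the count of values kept overstates how stable the directions are. In Model vs. Control, members called numbered 0 without the filter, 2 under each rescaling and under voom, and 1 to 3 when a library was left out. The wider list had 1 call with a pseudocount of 0.1, 5 with equal fragment totals, 9 with scaling that omits mitochondrial and the 20 highest genes, 14 under voom and 0 to 3 when a library was left out. Over all genes the 2 rescalings and voom called 2280 of 10066, 2438 of 9938 and 2734 of 9794. The members' median was -0.70, -0.78 and -0.73 under these scalings in the same order. In MUS vs. Control, members called numbered 0 without the filter, 2 under each rescaling, under the replicate block and under voom, and 0 to 3 when a library was left out (0 without MUS replicate 1). The wider list had 0, 10, 10 and 11 calls without the filter, under the rescalings and under voom, and 0 to 3 when a library was left out (0 without either MUS library, 1 without Control replicate 1). Over all genes the 2 rescalings and voom called 2787 of 10066, 2755 of 9938 and 3144 of 9794. The members' median was -0.54, -0.54 and -0.59 under these scalings. The replicate block changed no other member call.

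Directions turned mostly for values near 0. Under equal fragment totals, the scaling without mitochondrial genes and voom, Model vs. Control gave -0.22, -0.30 and -0.23 for Cs, -0.46, -0.54 and -0.53 for Idh3a and -0.31, -0.40 and -0.33 for Sdha, and MUS vs. Control gave -0.14, -0.15 and -0.14 for Cs. The scaling without mitochondrial genes turned MUS vs. Model to 0.047 for Idh1, 0.043 for Idh3a and 0.021 for Mdh2. Leaving out 1 library at a time gave the following ranges for values that changed sign: in Model vs. Control, -0.14 to 0.18 for Idh3a and -0.36 to 0.0155 for Mdh2, in MUS vs. Model, -0.062 to 0.20 for Acod1, -0.11 to 0.25 for Cs, -0.23 to 0.17 for Idh1, -0.063 to 0.12 for Idh2, -0.19 to 0.13 for Idh3a and -0.25 to 0.13 for Mdh2, and in MUS vs. Control, -0.16 to 0.14 for Idh3a, -0.13 to 0.037 for Ogdh and -0.12 to 0.030 for Fh1.

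Over all genes, Model vs. Control called 1475 genes, against 260 without the filter, 2280 with equal fragment totals, 2438 with the other rescaling, 2734 under voom, 797 in the fit of those groups alone, 692 without Model replicate 1, 763 without Control replicate 1, 800 and 797 without MUS replicate 1 or 2 and 2077 without Control replicate 2. MUS vs. Model called 0, against 1 with a pseudocount of 0.1, 7 in the fit of those groups alone, 4 under the replicate block and 31 without Model replicate 2 and 5 without either Control library. MUS vs. Control called 1980, against 456 without the filter, 3144 under voom, 184 without MUS replicate 1, 719 without MUS replicate 2, 1082 without Control replicate 1 and 2398 without Control replicate 2.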
